A study of Danio rerio with 2 samples.

Results

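Heat shock proteins and DnaJ (J-domain) proteins are the molecular chaperones that fold, refold and sort other proteins. The genes described here were all those whose symbol began with hsp followed by a digit or one of the letters a to e or h, or with dnaj. Of 25435 features, 87 symbols matched, and 73 of them had at least 30 unique molecular identifiers (UMIs, each standing for 1 captured transcript) over the cells of both libraries. Of the other 14, 6 had no UMI (hspa12a.1, hspa12a.2, dnajc22, hspb7, hspb9 and hspb11) and 8 had fewer than 30 (hspa1b, hspa12b, hsp90aa1.1, dnajb5, dnajb13, dnajc5b, hspb2 and hspb3). In each library taken alone, 69 of the 73 had at least 30 UMIs. The whole table held 16655 genes at that minimum.

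The knockout library came from adult zebrafish brain of genotype gpr85GAL4/GAL4, and the control library from gpr85Gal4/+. Both groups therefore carried Gal4 at gpr85, on both alleles in the knockout and on 1 in the control, and the gene itself encodes a receptor of the G-protein-coupled class. Papain digestion of the brains lasted 10 to 15 minutes at 33 °C, cells with green fluorescence and no dead-cell stain were sorted, 50000 for each genotype, and droplet libraries were made from transcript 3′ ends. Chaperone and immediate early genes respond to warmth and handling, and the part of this step in the levels below was not tested. Each genotype had 1 library, so no test between genotypes was possible, and age, sex and the number of pooled animals are not given in the sources used here. All intervals below are 95% intervals that cover counting error only. They treat UMIs as independent and are too narrow for a gene whose UMIs sit mostly in a few cells.

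Barcodes needed 1000 UMIs, 500 detected genes and no more than 15% of UMIs from mitochondrial genes to count as cells, which left 3231 knockout and 4091 control cells. They held 11215916 and 13754829 UMIs, with a median per cell of 2844 in the knockout and 2585 in the control, and 8 barcodes were kept in both libraries. On the CPM scale, which divides a gene's UMIs by those of the whole library or gate, gpr85 stood at 108 in the knockout and 145 in the control, and the part of the gene changed by the insertion is not given, so 3′ counts do not check the genotype. Cells were placed in classes by gates on marker genes, which left 2610 knockout and 3035 control cells in the cerebellar granule cell gate. The other gates were small, with 55 knockout and 22 control cells for habenula, 18 and 51 for GABAergic neurons, 22 and 91 for glutamatergic neurons with galn, 17 and 15 for microglia, 21 and 8 for radial glia, and 23 and 96 for immature granule cells. No cell passed the Purkinje gate in either library.

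Chaperones work as networks. Hsp70 proteins bind exposed hydrophobic stretches in a cycle driven by ATP, J-domain proteins bring them substrates and start that cycle, Hsp110 proteins and other exchange factors reset it, and Hsp90 takes over late folding steps of many kinases and receptors. Small heat shock proteins hold unfolded proteins without ATP, and the chaperonin hspd1 with its lid hspe1 folds proteins inside mitochondria. Some of these genes are used by every cell all the time (hspa8, hsp90ab1), while others are switched on by heat shock factor (hsp70l, hsp70.1, hsp70.2, hsp70.3, dnajb1b, hsp90aa1.2) and are common responders to stress. In neurons, hspa8 with its J-domain partners dnajc6 (auxilin) and dnajc5 (cysteine string protein) also takes part in clathrin uncoating and in the upkeep of synaptic vesicle proteins.

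Together the 73 genes took 0.615% of all UMIs in the knockout and 0.545% in the control. UMIs from 3′ ends do not scale with transcript length. The Hsp90 genes held 31.6% of the 73 genes' UMIs in the knockout and 32.0% in the control, and the Hsp70 genes 24.5% in the knockout and 19.2% in the control. The 30 class C J-domain genes held 23.6% in the knockout and 27.3% in the control. Single genes dominated these totals: hsp90ab1, the constitutive cytosolic Hsp90, had 15817 UMIs in the knockout and 19211 in the control and was found in 89.5% of knockout and 88.3% of control cells.

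The inducible Hsp70 genes were abundant in some cell classes and low in others. hsp70l, hsp70.1, hsp70.2 and hsp70.3 encode closely related stress-induced Hsp70 proteins, and hsp70.1, hsp70.2 and hsp70.3 lie next to each other in the GRCz12tu annotation. How reads shared by such close copies were counted was not tested. This limits the split between the copies and may also limit their sum. In the habenula gate, whose markers include kiss1 and gng8 of this relay in the dorsal forebrain, the 4 genes together reached 5853 CPM (5630 to 6084) in the knockout and 3863 CPM (3622 to 4115) in the control. In the granule gate they reached 37.8 CPM (33.7 to 42.2) in the knockout and 47.2 CPM (42.9 to 51.8) in the control. On the log2 scale the habenula gate stood 7.28 above the granule gate in the knockout and 6.35 above it in the control. The granule gate was tightened after values of these genes had been seen, and against its first, looser form the difference was 5.10 in the knockout and 5.88 in the control. Microglia stood highest in both libraries, at 6684 CPM in the knockout and 4211 CPM in the control, followed by the habenula gate. The GABAergic gate had 2127 CPM in the knockout and 2546 CPM in the control, and the radial glia gate 3307 and 479 CPM. The granule and immature granule gates were lowest in both libraries.

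Most habenula cells carried these transcripts, although 9 knockout and 3 control cells held 50% of the gate's UMIs. At least 5 UMIs of the 4 genes were present in 53 of 55 habenula-gate cells of the knockout (96.4%) and in 17 of 22 of the control (77.3%). The same held for 10 of 18 GABAergic-gate cells of the knockout (55.6%) and 36 of 51 of the control (70.6%). In the granule gate the share was 0.421% in the knockout and 0.659% in the control. Gates differed in depth, with a median of 7556 UMIs per habenula cell in the knockout and 11264 in the control, against 2879 and 2644 per granule cell. With every cell thinned to 1000 UMIs, 87.3% of knockout and 77.3% of control habenula cells still had at least 1 UMI of the 4 genes, against 2.34% and 2.37% of granule cells. Free RNA reaches every droplet, and its part in the granule share was not tested. The 4 genes had 2078 of 5120545 free UMIs in the knockout and 1307 of 4721343 in the control. Free RNA makes up at most 7.47% of granule-gate UMIs in the knockout and 10.4% in the control. With it subtracted from the sums, the habenula gate stood further above the granule gate in both libraries (values in the last section). The granule cells with at least 5 UMIs were 11 in the knockout and 20 in the control, with up to 18 and 35 UMIs of the 4 genes in a cell.

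**Figure D1:**
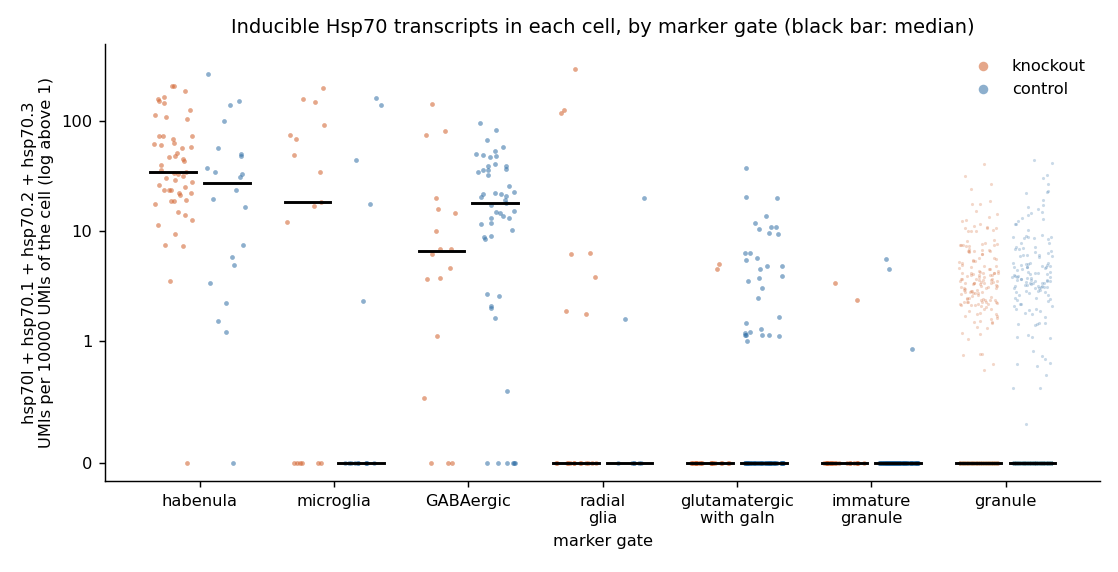
UMIs of hsp70l, hsp70.1, hsp70.2 and hsp70.3 per 10000 UMIs of each cell (vertical axis, linear to 1 and logarithmic above) for 7 marker gates, with 1 point per cell, knockout in orange and control in blue, and black bars at the medians. Habenula cells sit around medians of 34.4 in the knockout and 27.1 in the control, while the median granule cell is at 0 in both libraries.

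Within a gate the spread was wide. The highest habenula cell had 207 UMIs of the 4 genes per 10000 in the knockout and 269 in the control. GABAergic cells had a median of 6.51 in the knockout and 17.8 in the control, with highest values of 142 and 95.1. Microglia were split in the knockout: 11 of 17 cells had at least 5 UMIs and the other 6 had none, and in the control 4 of 15 reached 5 UMIs, so that the median was 18.2 in the knockout and 0 in the control. In radial glia, 4 of 21 knockout cells and 1 of 8 control cells reached 5 UMIs. Glutamatergic cells with galn stood low, at 42.6 CPM in the knockout and 347 CPM in the control, and 50% of the UMIs in that control gate came from 4 cells.

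Over all kept cells, 145 knockout cells (4.49%, interval 3.80 to 5.26) and 132 control cells (3.23%, interval 2.71 to 3.81) had at least 5 UMIs of the 4 genes. These cells held 96.1% of the 4 genes' UMIs in the knockout and 92.5% in the control. They were deeper than the rest, with medians of 8131 UMIs in the knockout and 9233 in the control, against 2788 and 2545 for the others. Their median mitochondrial share was 1.28% in the knockout and 1.12% in the control, against 1.08% and 1.06% for the others. Cells in no gate supplied 52 of the 145 in the knockout and 42 of the 132 in the control. Any sum of these genes over a whole library is therefore set largely by these cells.

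Across cells the 4 genes varied together. The Pearson correlation of depth-corrected counts over all kept cells was 0.870 in the knockout and 0.811 in the control for hsp70.2 with hsp70.1, and 0.808 in the knockout and 0.712 in the control for hsp70.2 with hsp70l. hsp90aa1.2, the inducible cytosolic Hsp90, correlated with hsp70l at 0.614 in the knockout and 0.457 in the control. dnajb1b, the inducible J-domain partner of Hsp70, correlated with hspa4a, an Hsp110 exchange factor, at 0.629 in the knockout and 0.614 in the control, and hspa4a with hsp70l at 0.419 in the knockout and 0.536 in the control. Of 2346 pairs of 69 genes, 22 had a correlation over 0.3 in both libraries. These coefficients are over cells of 1 library, which share class makeup and depth. Within the granule gate only 8 pairs passed 0.1 in both libraries, among them hsp70.2 with hsp70.1 at 0.401 in the knockout and 0.583 in the control. Shares for pairs of all genes were not computed, so neither count of pairs sets chaperone genes apart.

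Beyond the Hsp70 genes, other chaperone genes also stood above the granule gate in some classes. The counts below are of all chaperone genes and include the inducible Hsp70 genes. All 4 of these are among the higher genes of the habenula, GABAergic and microglia gates, and hsp70l, hsp70.1 and hsp70.2 among those of radial glia. Shares without them were not computed, so the counts do not show that the other chaperone genes were higher more often than all genes. A gene was counted as higher in a gate when its CPM was at least 2-fold that of the granule gate in both libraries, among genes with at least 20 UMIs in the gate over both libraries. In the habenula gate 13 of 38 chaperone genes met this, against 16.4% of all genes tested. In the GABAergic gate it was 12 of 48, against 16.8% of all genes. In the microglia gate it was 12 of 18 and in the radial glia gate 8 of 13, but there 50.0% and 36.4% of all genes did, and in the glutamatergic gate it was 3 of 43, against 5.63%. In the immature granule gate it was 0 of 21, against 2.84% of all genes. For these calls 0.5 UMI was added to each sum, and 3 genes met the 2-fold limit in both libraries only through it: dnajc19 in the habenula gate, dnajb1b in the GABAergic gate (1 knockout UMI) and hspb1 in microglia (no knockout UMI). With no count added it was 12 of 38 in the habenula gate, against 15.8% of all genes, 11 of 48 in the GABAergic gate, against 16.2%, and 11 of 18 in microglia, against 49.0%. No chaperone gene was counted as 2-fold lower with 0.5 added, against 6.85% of all genes in the habenula gate, 4.42% in the GABAergic gate, 2.62% in the glutamatergic gate, 8.69% in microglia, 7.82% in radial glia and 0.469% in immature granule cells. That count of 0 came from the way genes were entered, since a gene that is low in a small gate fails the minimum of 20 UMIs, and dnajc5ab was 2-fold lower in the habenula gate with no count added. With that minimum taken on the UMIs seen or those the granule CPM would give, the count was 12 of 45 in the habenula gate, 11 of 49 in the GABAergic gate, 11 of 25 in microglia and 8 of 20 in radial glia. The share of all genes was then 12.8% in the habenula gate, 14.5% in the GABAergic gate, 25.4% in microglia and 21.8% in radial glia. In this form 3 chaperone genes were at least 2-fold lower in both libraries in the habenula gate (hspa8b, hspa12a and dnajc5ab), 5 in microglia (hspa8b, hspa4l, dnajb6a, dnajc5aa and dnajc6), 2 in radial glia (dnajc7 and dnajc5aa) and 2 in immature granule cells (hspa8b and hspe1), against 15.2%, 42.5%, 26.4% and 2.04% of all genes in these 4 gates.

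The habenula set beyond Hsp70 held hsp90aa1.2 at 1839 CPM in the knockout and 1501 CPM in the control, against 327 and 229 CPM in the granule gate. It also held the exchange factors hspa4a and hsph1 (Hsp110) and hspbp1, the J-domain genes dnajb1a, dnajb1b, dnajb6b and, through the added count, dnajc19, and hsp90b1, the Hsp90 of the endoplasmic reticulum. hspa4a stood at 150 CPM in the knockout and 145 CPM in the control habenula cells, against 21.4 and 16.2 CPM in granule cells. The GABAergic set shared with the habenula set the inducible Hsp70 genes, hspa4a, hsph1, hspbp1, dnajb1a and, through the added count, dnajb1b. Both sets were taken against the same granule gate, and the overlap of all genes between them was not computed. Its other genes were hspd1, the mitochondrial chaperonin, dnajc12, a J-domain partner of aromatic amino acid hydroxylases, and dnajc16. In the glutamatergic gate the third gene beside hsp70.1 and hsp70.2 was hspb6, a small heat shock protein, at 36.5 CPM in the knockout and 33.4 CPM in the control.

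In microglia dnajb1b stood far above every other gate, at 1965 CPM (1739 to 2212) in the knockout and 2003 CPM (1709 to 2332) in the control, against 2.73 and 3.48 CPM in granule cells. UMIs of dnajb1b were seen in 12 of 17 knockout and 8 of 15 control microglia. The constitutive hspa8 was also high there, at 2905 CPM in the knockout and 2282 CPM in the control, against 333 and 212 CPM in granule cells. hspa4a reached 918 CPM in the knockout and 801 CPM in the control. Some microglial values rested on single cells: 1 control cell held 23 of the 24 microglial UMIs of hspb1, a small heat shock protein, and knockout microglia had none. For hsp90aa1.2, 1 knockout microglia cell held 211 of 335 UMIs.

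hspb15, a small heat shock protein of fish, was highest in the radial glia gate. It had 56 UMIs in 11 of 21 radial glia of the knockout (409 CPM) and 5 UMIs in 3 of 8 of the control (160 CPM), against 0.475 and 0.105 CPM in the granule gate. No UMI of it was seen in the GABAergic, glutamatergic or microglia gates of either library. dnajb1b in radial glia had 234 CPM in the knockout and 95.9 CPM in the control, the control value from 3 UMIs of 1 cell.

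**Figure D2:**
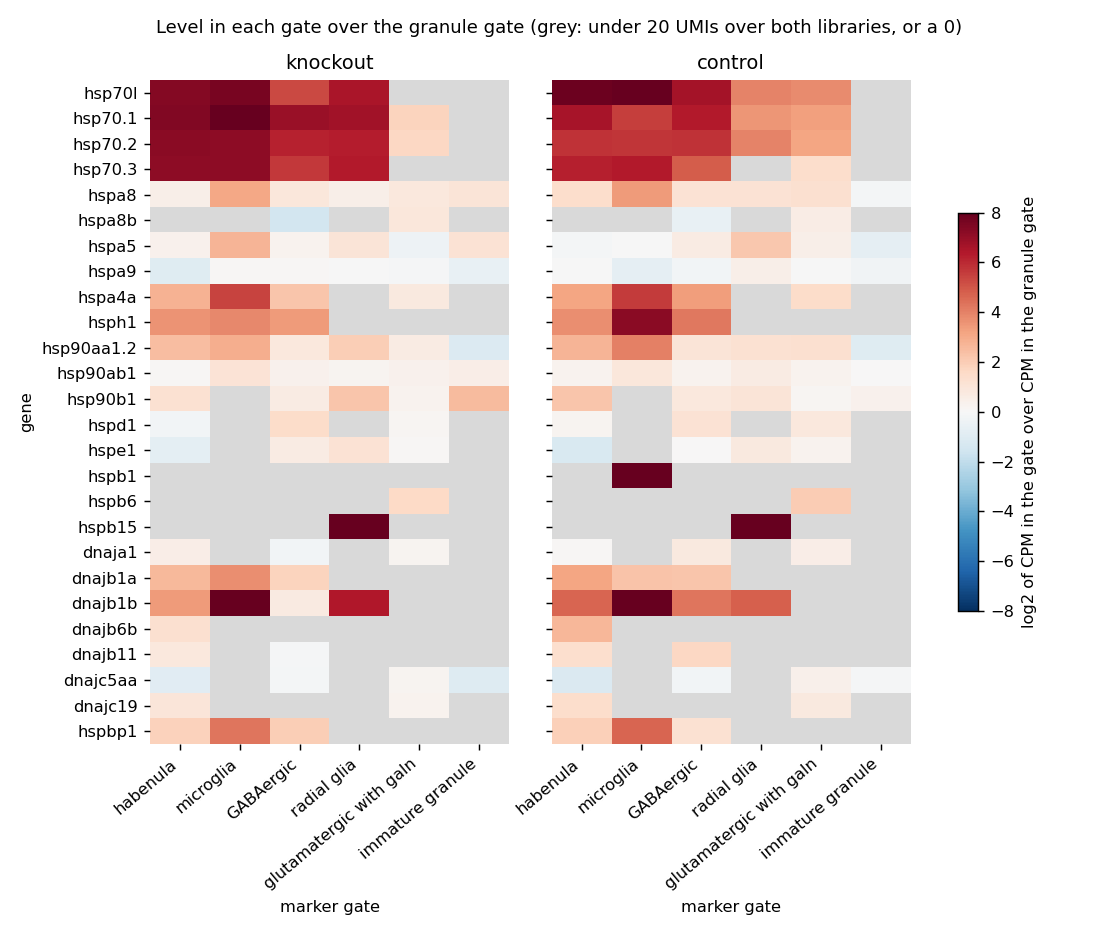
Log2 of the CPM in each gate over the CPM in the granule gate (colour, from blue for lower to red for higher, saturating at 8) for 26 chaperone genes (rows) and 6 gates (columns), knockout left and control right; grey marks under 20 UMIs over both libraries or a 0. The top 4 rows, the inducible Hsp70 genes, are deep red in the habenula, microglia and GABAergic columns of both panels, dnajb1b in the microglia column, and hsp90ab1 is pale in all columns.

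Other chaperones varied less over classes. hsp90ab1 lay between 1315 and 2768 CPM over the 7 gates in the knockout and between 1340 and 2476 CPM in the control, highest in microglia in both. hspa9, the mitochondrial Hsp70, had 161 CPM in knockout and 160 CPM in control granule cells, and 83.8 CPM from 37 UMIs in knockout and 157 CPM from 39 UMIs in control habenula cells.

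hspa8b, a second gene of the constitutive Hsp70 type, behaved unlike the inducible genes. It had 873 UMIs in the knockout and 1263 in the control, or 77.8 CPM (72.8 to 83.2) in the knockout and 91.8 CPM (86.8 to 97.0) in the control. It was seen in 17.2% of knockout and 19.5% of control cells, with at most 6 UMIs in a knockout cell and 12 in a control cell. At least 2 UMIs were present in 6.38% of knockout and 6.72% of control cells. Thinned to 1000 UMIs, 7.52% of knockout and 7.99% of control cells had at least 1 UMI. At the limit of 2 UMIs the thinned shares stood in the opposite order, higher in the knockout (values in the last section). With so few UMIs per cell, the limit of 2 marks a range and not a cell type.

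Among the gates hspa8b was highest in glutamatergic cells with galn, at 170 CPM (113 to 246) in the knockout and 155 CPM (128 to 186) in the control. The granule gate followed at 89.4 CPM (83.1 to 96.0) in the knockout and 101 CPM (94.4 to 107) in the control, within the wide interval of the radial glia gate in both. The habenula gate was low, at 6.80 CPM from 3 UMIs in the knockout and 48.3 CPM from 12 UMIs in the control, 7 of these in 1 cell, and microglia had 1 UMI in each library. The intervals of the GABAergic, immature granule and radial glia gates overlapped each other within each library.

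Within the granule gate hspa8b also differed between subsets, which are named here by their marker genes. Cells with phldb1a, kcnd3 and inhbb had 135 CPM of hspa8b (110 to 164) in the knockout and 142 CPM (119 to 168) in the control. Cells with gsg1l and lmx1al had 11.6 CPM (4.24 to 25.2) from 135 cells in the knockout and 32.3 CPM (23.9 to 42.7) from 442 cells in the control. The pax2a, pax5 and en1a subset had no UMI in 33 knockout cells, which allows at most 34.2 CPM, and 27.3 CPM in 62 control cells. The intervals of the phldb1a and gsg1l subsets did not overlap in either library. hspa8 had 225 CPM (192 to 261) in the knockout and 166 CPM (141 to 194) in the control in the phldb1a subset. In the gsg1l subset it had 314 CPM (268 to 366) in the knockout and 206 CPM (184 to 230) in the control, and the control intervals of the 2 subsets overlapped.

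**Figure D3:**
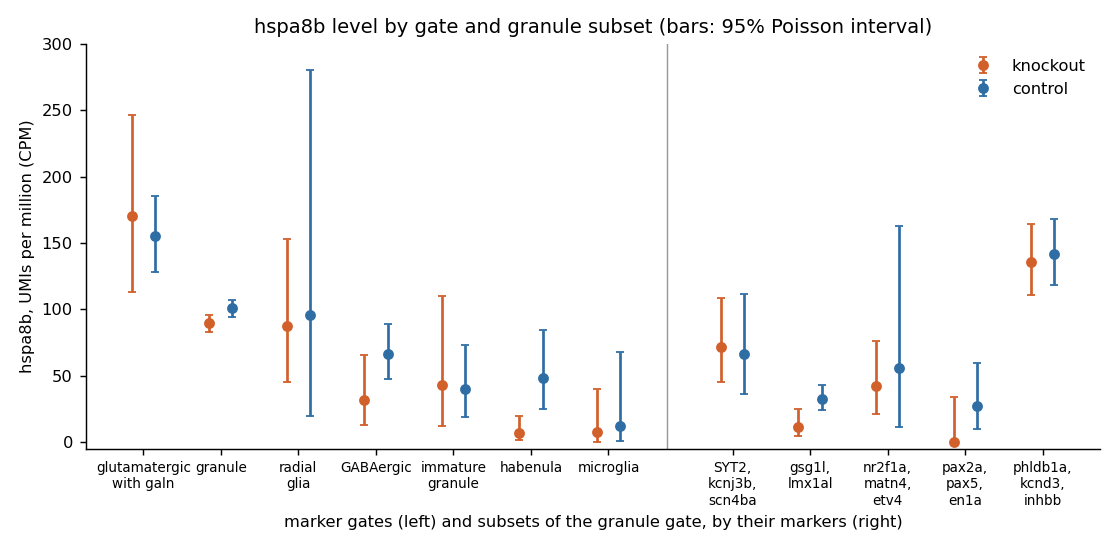
CPM of hspa8b (vertical axis) by marker gate, left of the line, and by subset of the granule gate named by its markers, right of the line, knockout in orange and control in blue, with 95% Poisson intervals. The phldb1a subset and the glutamatergic gate stand highest in both libraries, between 135 and 170 CPM, and the gsg1l subset lies at 11.6 CPM in the knockout and 32.3 CPM in the control.

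Over granule cells the dispersion of UMIs given each cell's depth (1 is the value for pure counting noise) was 1.78 for hspa8b in the knockout and 1.58 in the control. This was higher than for 92.3% of all genes in the knockout and 87.4% in the control. These ranks were over genes of all levels and were not matched for level, so they do not show that hspa8b varies more than genes of its own level. Of the 73 chaperone genes, 7 had a dispersion of at least 1.5 in both libraries, against 11.3% of all genes. They were hsp70.2 at 2.23 in the knockout and 2.50 in the control, hsp70.3 at 2.16 and 4.04, hsp90aa1.2 at 1.84 and 1.99, hsp90ab1 at 1.71 and 1.82, hspa8b, hsp90b1 and dnajb2. dnajb2, in mammals a neuronal J-domain protein with ubiquitin-binding motifs, stood at 1.52 in the knockout and 1.67 in the control. hsp70l had 2.79 in the knockout and 0.796 in the control, where it had 39 UMIs over 3035 granule cells. The gate was tightened after hsp70l had been seen to vary with a habenula marker inside it, which bears on these values. In the looser form hsp70l had 15.2 in the knockout and 2.23 in the control, hsp70.2 had 9.45 and 3.20, and hsp70.3 had 9.22 and 4.63. There hsp70.1 had 4.39 in the knockout and 1.19 in the control, and hspa8b 1.83 and 1.59. Among genes with high counts, dnajc5aa, encoding cysteine string protein, was close to counting noise at 1.12 in the knockout and 1.11 in the control. The count of 7 depended on depth, since with each cell thinned to 1000 UMIs it was 2.

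**Figure D4:**
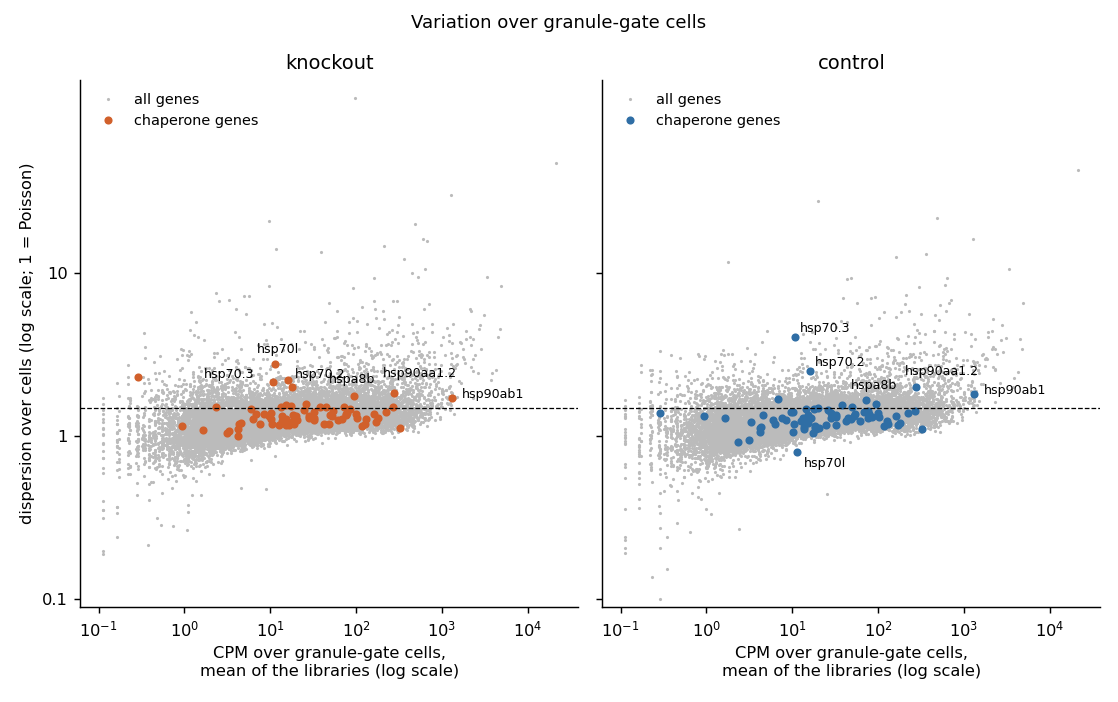
Dispersion of UMIs over granule-gate cells given cell depth (vertical axis, logarithmic, 1 for counting noise) against mean CPM (horizontal axis, logarithmic) for 16476 genes (grey) and the chaperone genes (coloured), knockout left and control right, with the dashed line at 1.5. Most chaperone genes lie under the line within the grey cloud, and hsp70.2, hsp70.3, hsp90aa1.2, hsp90ab1 and hspa8b lie above it in both panels.

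The genes whose counts followed hspa8b most closely over granule cells, out of 11051, were calm1a (calmodulin), with a correlation of 0.149 in the knockout and 0.187 in the control, zeb2b with 0.108 and 0.113, and c1qtnf4 with 0.108 and 0.130. The immediate early genes egr4 and egr1 were among the top 10, egr4 with 0.101 in the knockout and 0.128 in the control and egr1 with 0.101 and 0.0997. The most opposite was syt7b, at -0.14 in the knockout and -0.13 in the control. The closest chaperone was dnaja3b, at 0.0311 in the knockout and 0.0269 in the control. All of these are weak in sparse counts and describe only the 2610 knockout and 3035 control cells of these libraries.

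Between the libraries most chaperone genes were close. Over all kept cells 9 of 73 were at least 1.5-fold higher in the knockout library, against 9.10% of all genes with at least 30 UMIs, and 3 were at least 1.5-fold lower, against 10.5%. The median log2 ratio of knockout over control was 0.13 for the chaperone genes and -0.03 for all genes. In the granule gate alone 6 of 71 were higher, against 6.39% of all genes, and 5 were lower, against 10.2%, with medians of 0.03 and -0.04. The counts of higher chaperone genes were near the background shares, and hsp70.1, hsp70.2 and hsp70.3, 3 of the 5 lower ones in the granule gate, depended on how that gate was drawn (given with their values). With free RNA subtracted, hsp70.1 and hsp70.3 had no ratio there.

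By family, the higher ones over all kept cells were 3 of 11 Hsp70 genes, 2 of 3 Hsp90 genes, 1 of 4 small heat shock proteins, 2 of 12 class B and 1 of 30 class C J-domain genes. The lower ones were 1 small heat shock protein, 1 class B and 1 class C J-domain gene. None of the 4 Hsp110 genes, 5 class A J-domain genes, 2 chaperonin genes and 2 genes named for binding a heat shock protein (hspbp1 and hspbap1) passed 1.5-fold. Log2 ratios lay between -0.17 and 0.35 for the Hsp110 genes (hspa4a, hspa4b, hspa4l and hsph1), between -0.46 and 0.32 for the class A genes, and at 0.49 for hspd1 and 0.18 for hspe1. The range was -0.62 to 0.67 for class B genes and -0.86 to 0.62 for class C genes.

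hsp70l had the largest difference of the abundant genes, with 3456 UMIs (308 CPM) in the knockout and 848 (61.7 CPM) in the control, a log2 ratio of 2.32 (2.21 to 2.43). In the knockout, 22 of 3231 cells held 50% of these UMIs, and in the control 10 of 4091 did. Without the cells that had at least 5 UMIs of the 4 genes, a cut on a sum that includes hsp70l, the ratio was 1.68. The 7 habenula markers summed to 352 CPM in the knockout and 207 CPM in the control over all kept cells, and to 66.0 and 74.8 CPM in the granule gate. The 15 microglia markers summed to 792 CPM in the knockout and 401 CPM in the control over all kept cells. The alternatives run included averaging over classes and leaving out the habenula, microglia and radial glia gates. Across all of them the hsp70l ratio over kept cells lay between 1.59 and 2.66. The part of habenula cells and microglia in the library sums was not tested beyond these and the values within gates. The difference was present inside gates, but the cells of a gate were not matched between the libraries. Among the 10 genes most raised in the habenula gate were kiss1 in the knockout, gng8 and tac3a in the control, and pou4f1 in both. For the GABAergic gate they included crha and vax1 in the knockout, hoxb6a and hoxb5a in the control, and otpb in both. hsp70l had 2947 CPM in the knockout and 958 CPM in the control in the habenula gate, 3507 and 1529 CPM in microglia, 701 and 422 CPM in GABAergic cells, and 18.4 and 4.11 CPM in granule cells. Among cells in no gate it had 728 CPM in the knockout and 52.5 CPM in the control. In the glutamatergic gate it had no UMI in 22 knockout cells and 43 UMIs in 91 control cells.

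The other inducible Hsp70 genes differed less between the libraries than hsp70l, and in no single direction. Over all kept cells hsp70.1 had a log2 ratio of 0.60 (0.46 to 0.74), hsp70.2 of 0.17 (0.08 to 0.26) and hsp70.3 of 0.35 (0.23 to 0.47). Without the cells that had at least 5 UMIs of the 4 genes these became -0.30 for hsp70.1, -1.14 for hsp70.2 and -0.03 for hsp70.3. That cut was on the sum of the same genes, of which hsp70l was a larger share in the knockout. It therefore limits the other 3 genes unequally in the 2 libraries. Across the 11 alternatives run for all kept cells, hsp70.3 lay between -0.64 and 0.80. hsp70.1 lay between -0.30 and 0.75, and hsp70.2 between -1.14 and 0.24. In the habenula gate hsp70.3 had 870 CPM in the knockout and 1159 CPM in the control, and hsp70.2 had 1441 and 1203 CPM. In the granule gate hsp70.2 had 9.74 CPM in the knockout and 22.1 CPM in the control, a log2 ratio of -1.18 (-1.57 to -0.81), and hsp70.3 had 6.06 and 15.4 CPM, a log2 ratio of -1.34 (-1.83 to -0.88). hsp70.1 stood at -0.65 (-1.34 to 0.02) there. In free RNA (barcodes with under 100 UMIs) hsp70.2 had 71.1 CPM in the knockout and 80.7 CPM in the control, and hsp70.3 119 and 108 CPM. Free RNA makes up at most 7.47% of granule-gate UMIs in the knockout and 10.4% in the control. With it subtracted at these shares, no hsp70.1 or hsp70.3 was left in knockout granule cells, so they had no ratio. The directions of these genes in the granule gate also depended on how the gate was drawn. In the first, looser form of the gate, with 2822 knockout and 3414 control cells the ratios were 0.59 for hsp70.2, 0.51 for hsp70.3 and 1.37 for hsp70.1. hsp70l was higher in the knockout in the looser gate as well, at 3.41.

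Expressed as a share of the 4 genes' UMIs, hsp70l made up 46.9% (45.7 to 48.0) in the knockout and 18.0% (16.9 to 19.1) in the control over all kept cells. The share was 50.3% in the knockout and 24.8% in the control in habenula cells, 33.0% and 16.6% in GABAergic cells, 52.5% and 36.3% in microglia, and 48.7% and 8.71% in granule cells. In free RNA, read from barcodes with under 100 UMIs, it was 41.4% in the knockout and 12.6% in the control. The larger share of hsp70l in the knockout library was thus present in these 4 gates and in the free RNA. The division of reads between the close copies was not tested.

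Of the constitutive and organelle genes, hspa8 had 412 CPM in the knockout and 268 CPM in the control, a log2 ratio of 0.62 (0.55 to 0.68). In granule cells it had 333 and 212 CPM, at 0.65 (0.57 to 0.74), and in immature granule cells 666 CPM in the knockout, 50% of it from 3 cells, and 194 CPM in the control. hsp90aa1.2 had 475 CPM in the knockout and 310 CPM in the control, at 0.62 (0.56 to 0.67), with 0.51 (0.43 to 0.59) in granule cells. Without the cells that had at least 5 UMIs of the 4 inducible Hsp70 genes it was at 0.42, which is under 1.5-fold. hsp90ab1 was level, at 1410 CPM in the knockout and 1397 CPM in the control, a log2 ratio of 0.01 (-0.02 to 0.04). hspa8b had a log2 ratio of -0.24 (-0.36 to -0.11), and -0.17 in granule cells, but 0.06 over all kept cells thinned to 1000 UMIs. hspa5, the Hsp70 of the endoplasmic reticulum, stood at 0.26 (0.14 to 0.39).

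hsp90b1 had 59.8 CPM in the knockout and 35.9 CPM in the control, a log2 ratio of 0.74 (0.57 to 0.91). dnajb11, a J-domain partner of hspa5, had 20.6 CPM in the knockout and 12.9 CPM in the control, at 0.67 (0.38 to 0.96). dnajc10, a J-domain disulfide reductase, had 85 UMIs in the knockout and 68 in the control, at 0.62 (0.14 to 1.1). dnajb6b, a suppressor of protein aggregation, stood at 0.62 (0.28 to 0.96). Other chaperone genes of the 73 whose products work in the endoplasmic reticulum did not pass 1.5-fold in this direction. Of these, hspa13 stood at 0.05, dnajc3b at 0.32 and dnajc3a at -0.24. dnajb9a, also of the reticulum, passed 1.5-fold the other way, at -0.62 (-1.53 to 0.24), on 18 knockout and 34 control UMIs. In the list of 28 reticulum genes read below, 3 passed it (manf at 1.21, calr3b at 0.83 and creld2 at 0.62), and 1 passed 1.5-fold the other way. In granule cells the log2 ratio was 0.57 for hsp90b1, 0.80 for dnajb11, 0.75 for dnajc10 and 0.85 for dnajb6b. Across the alternatives run, the lowest values over all kept cells were all under 1.5-fold. They were 0.55 for hsp90b1, 0.40 for dnajb11, 0.56 for dnajc10 and 0.52 for dnajb6b. The lowest values in granule cells were 0.48, 0.37, 0.72 and 0.73 in the same order. In immature granule cells hsp90b1 had 269 CPM in the knockout, 13 of its 25 UMIs in 1 cell, and 39.6 CPM in the control.

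Among the lower genes, dnajc19, a J-domain protein of the mitochondrial inner membrane, had 14.9 CPM in the knockout and 27.0 CPM in the control, a log2 ratio of -0.86 (-1.13 to -0.59), with -0.76 in granule cells and -1.22 in habenula cells. With every cell thinned to 1000 UMIs it was at -0.54. hspb1, at -0.61 (-1.39 to 0.13), rested on 24 UMIs in the knockout and 45 in the control, and dnajb9a, at -0.62 (-1.53 to 0.24), on 18 and 34. dnajc16 stood at -0.52, and at -0.73 (-1.12 to -0.34) in granule cells, where it was 1 of the 5 lower genes. Over all kept cells dnajb2 stood at -0.50, dnaja3b at -0.46, dnajc17 at -0.38 and hspbap1 at -0.34, and neither these 4 nor dnajc16 passed 1.5-fold. hspb15 was at 3.10 (2.18 to 4.16) from 77 UMIs in the knockout and 11 in the control, of which 56 and 5 were in the radial glia gate of 21 knockout and 8 control cells, and 3 cells held 50% of its UMIs in each library. Thinned to 1000 UMIs per cell, its ratio was 0.93. dnajb1b, at 0.45 (0.25 to 0.65), drew 50% of its UMIs from 7 knockout and 8 control cells, and without cells of at least 5 UMIs of the 4 inducible Hsp70 genes it stood at -1.25.

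**Figure D5:**
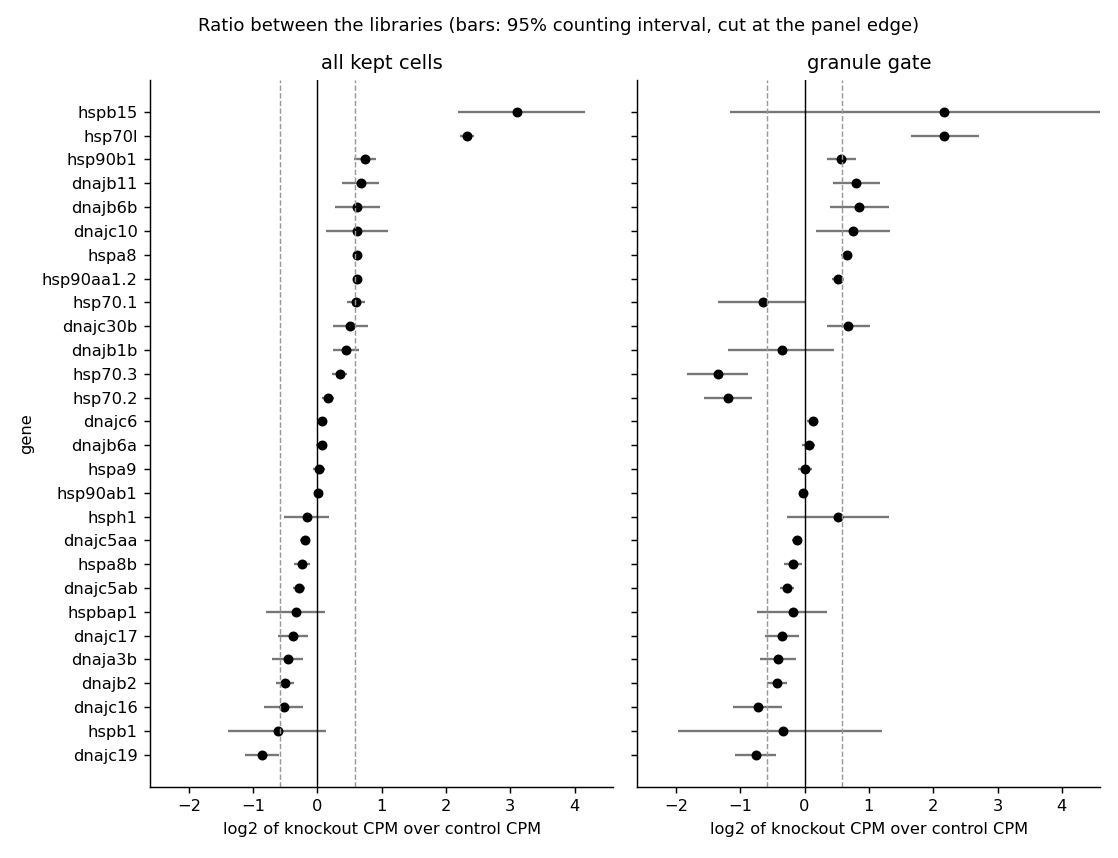
Log2 of knockout CPM over control CPM (horizontal axis) for the named chaperone genes (rows) over all kept cells (left) and in the granule gate (right), with 95% counting intervals and dashed lines at 1.5-fold. hspb15 and hsp70l stand apart at 3.10 and 2.32 on the left, hsp90ab1 lies at 0, and hsp70.2 and hsp70.3 lie right of 0 on the left and left of 0 on the right.

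The synaptic J-domain genes varied little. dnajc5aa had 286 CPM in the knockout and 329 CPM in the control, at -0.20 (-0.27 to -0.13), dnajc5ab stood at -0.29 (-0.38 to -0.20) and dnajc6 at 0.07 (-0.01 to 0.15). dnajb6a, with 1972 UMIs in the knockout and 2313 in the control, was at 0.06, and hspa9 at 0.02. dnajc30b, a mitochondrial J-domain protein, was at 0.51 (0.23 to 0.79), and at 0.68 (0.35 to 1.02) in granule cells, where it was 1 of the 6 higher genes. Across the alternatives run, its lowest granule value was 0.40, under 1.5-fold.

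Genes around these chaperones were read from 3 lists. Of 39 heat shock factors and co-chaperones, 32 were tested and 0 were at least 1.5-fold higher and 1 lower, sil1, an exchange factor for hspa5, at -0.60, against 9.10% and 10.5% of all genes. The list's median was -0.01, and in the granule gate 2 of 32 were higher and 0 lower, against 6.39% and 10.2% of all genes. Its members with the most UMIs, ubb, hsf2 and hsbp1a, had log2 ratios of 0.14, -0.21 and -0.06, and the highest, hyou1, at 0.56. Of 28 genes of the unfolded protein response of the endoplasmic reticulum, 3 were higher and 1 lower, against the same shares over all kept cells, with a median of 0.01, and in the granule gate 2 were higher and 1 lower. For this list the counts of higher genes were near the shares of all genes. The extremes were manf, a secreted protein of the reticulum, at 15.8 CPM in the knockout and 6.83 CPM in the control (1.21), and ero1a, an oxidase, at 4.28 and 9.60 CPM (-1.17). atf4b, xbp1 and calr stood at 0.14, 0.01 and 0.03.

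Immediate early genes, switched on within minutes of neuronal activity or stress, differed more widely. Of 31 listed, 28 were tested, and 14 were at least 1.5-fold higher and 1 lower in the knockout library, against 9.10% and 10.5% of all genes, with a median log2 ratio of 0.49. In the granule gate 13 of 25 were higher and 0 lower, against 6.39% and 10.2% of all genes, with a median of 0.87. egr4 had 1741 CPM in the knockout and 892 CPM in the control (0.97), egr1 had 740 and 350 CPM (1.08), and jund 460 and 499 CPM (-0.12). The highest ratio was that of nr4a2a, at 29.6 CPM in the knockout and 6.62 CPM in the control (2.16), and the lowest that of atf3, at 29.4 and 44.9 CPM (-0.61). The list's summed level in habenula cells was 13834 CPM in the knockout and 22450 CPM in the control, and in granule cells 5214 and 2896 CPM. It was 5434 CPM in the knockout and 5793 CPM in the control in GABAergic cells, 25588 and 23508 CPM in microglia, and 3161 and 863 CPM in radial glia. In habenula cells this list and hsp70l thus stood in opposite order between the libraries, and in granule cells and radial glia in the same order. The list's sums were close between the libraries in GABAergic cells and microglia, so no order is read there. In glutamatergic cells with galn the list was level, at 1813 CPM in the knockout and 1809 CPM in the control. hsp70l had 0 UMIs there in the knockout and 43 in the control. The part of these genes in the chaperone ratios was not tested.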

How the data were processed

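The deposited values are raw UMI counts per gene and barcode for 2 libraries, written by Cell Ranger 7.1.0 per the file headers, with no cell filter. The submitters' processing notes list GRCz11 and Seurat without a role. Members and gene lists were chosen with earlier results of these data known, and the minimum of 30 UMIs was taken over both libraries together.

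A gate needed 3 distinct markers of a class and 20 of its UMIs per 10000, and cells in 2 gates were left out. Granule cells also had to be under 20 per 10000 for the markers of every other class. That limit and the rate limit for granule markers were added after member values had been seen, when hsp70l was found to vary with a habenula marker inside the looser gate. Granule subsets needed 2 distinct markers and 5 UMIs per 10000. The oligodendrocyte gate was not used, since its markers dominate free RNA (5908 CPM in the knockout and 8538 CPM in the control), which was read from barcodes with under 100 UMIs and makes up at most 7.47% of granule-gate UMIs in the knockout and 10.4% in the control. The grouping of the 4 inducible Hsp70 genes, the limits of 5 UMIs for them and of 2 for hspa8b, and the other gate limits were also set after values had been seen.

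Intervals are at 95%: Poisson for sums of UMIs, Clopper-Pearson for percentages and conditional binomial for ratios, all exact. With 1 library per genotype no test was made, and a gene was counted as higher or lower past 1.5-fold. Gates were set against the granule gate at 2-fold in both libraries, with 0.5 UMI added to each sum and at least 20 UMIs in the gate. The forms with no added count and with another minimum were chosen after seeing the data. Dispersion is the mean squared Pearson residual given cell depth, and correlations are over the same residuals. Doublets were removed only as an alternative, since the automatic threshold of Scrublet (scanpy 1.11.5) marked 2 knockout and 0 control cells. Named genes were the 10 with most UMIs, the 10 of highest dispersion, the 6 highest and 6 lowest ratios with at least 100 UMIs, the 8 highest over the granule gate, hspa8b, and in each list the 3 with most UMIs and both extremes. Others belong to a count given or were chosen after their values were seen. The functions were checked on simulated data, with Python 3.11.15, numpy 2.4.6, scipy 1.17.1 and pandas 2.3.3.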

Additional observations from a re-analysis of the deposited data

Results flagged for a closer look

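For 5 chaperone genes the difference between the libraries ran one way in some gates and the other way in others, past 1.5-fold and with counting intervals clear of 0. The share of all genes that did so was not computed, so this count does not set chaperone genes apart. The difference between gates was not tested, since each genotype had 1 library. The intervals treat UMIs as independent and are too narrow where a few cells hold much of a gate's UMIs. Being clear of 0 therefore does not show that a difference holds across the cells of a gate. hsp70.1 had a log2 ratio of knockout over control of 1.89 in microglia and 2.54 in radial glia, against -2.17 in glutamatergic cells with galn, where the knockout had 2 UMIs and the control 41. hsp70.2 had 1.08 in radial glia, against -0.81 in GABAergic cells, -2.68 in glutamatergic cells with galn and -1.18 in granule cells. hsp70.3 had -1.34 in granule cells. In radial glia it had 68 UMIs in the knockout and 0 in the control, and the lower bound of the log2 ratio was 2.03. In glutamatergic cells with galn it had 0 UMIs in the knockout and 30 in the control, with an upper bound of -0.75. hsp70l had 1.62 in habenula, 0.73 in GABAergic cells, 1.2 in microglia, 4.73 in radial glia and 2.16 in granule cells. In glutamatergic cells with galn it had 0 UMIs in the knockout and 43 in the control, with an upper bound of -1.29. hsp90aa1.2 had 1.23 in radial glia and -0.63 in microglia. The granule values of hsp70.2 and hsp70.3 were above 0 in the looser form of that gate. With free RNA subtracted, hsp70.3 had no granule ratio. The radial glia gate held 21 knockout and 8 control cells. UMIs of the 4 inducible Hsp70 genes were uneven over cells. In radial glia the highest cell held 174 of 453 in the knockout and 14 of 15 in the control. The highest cell held 78 of 260 in control glutamatergic cells with galn and 143 of 347 in control microglia. For hsp90aa1.2, 1 knockout microglia cell held 211 of 335 UMIs and 1 control radial glia cell 11 of 17.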

How the results depend on the processing

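No paired analysis was possible because each genotype had 1 library, and for the same reason no replicate could be left out. Over the alternatives run, 107 of 150 summary values stayed within the counting interval or within 1.5 times the value reported, and 43 did not. The causes were not tested beyond what the construction of a setting shows. With 2000 UMIs and 1000 genes per cell, 7.34% of knockout and 8.56% of control cells had at least 2 hspa8b UMIs. With 1 UMI as the limit it was 17.2% and 19.5%, with 4 UMIs 0.712% and 1.1%, and with cells thinned to 1000 UMIs 1.55% and 0.880%. The count of members at least 1.5-fold lower over all kept cells (3) was 1 with 500 UMIs and 300 genes per cell, with 200 UMIs per member and with 30 in each library, 0 with thinned cells, and 6 with 1 UMI per member. At 2-fold, 2 were higher and 0 lower over all kept cells, and 1 higher and 2 lower in the granule gate. There the count of higher members (6) was 10 with each cell weighted equally, 10 with the stricter gate and 3 with 200 UMIs per member, and that of lower members (5) was 3 with 200 UMIs per member, 8 with 1 UMI and 3 with the looser gate. The 7 members of high dispersion were 2 after thinning. The log2 level of the 4 inducible Hsp70 genes in the habenula gate over the granule gate was 9.14 in the knockout and 7.70 in the control with free RNA subtracted, 7.89 and 7.11 with the stricter gate, 5.10 and 5.88 with the looser gate, and 7.33 in the control with cells weighted equally. For the GABAergic gate the main values were 5.81 in the knockout and 5.75 in the control. They became 7.67 and 7.1 with free RNA subtracted, 6.22 and 6.47 with the stricter gate, 3.64 and 5.28 with the looser gate, and 6.05 and 6.34 with equal weights. The share of granule cells with at least 5 UMIs of the 4 genes was 0.142% in the knockout with the stricter gate and 1.2% with the looser gate. At a limit of 10 UMIs it was 0.362% in the control, and the habenula share was 87.3% in the knockout. Among genes past 1.5-fold, directions reversed in 6 cases. In the looser granule gate hsp70.1 was at 1.37, hsp70.2 at 0.59 and hsp70.3 at 0.51. Over all kept cells hsp70.1 was at -0.11 when averaged over classes and -0.30 without cells of at least 5 UMIs of the 4 genes, and hspb1 was at 0.50 without the habenula, microglia and radial glia gates. The alternatives with 10 UMIs, without cells or gates, and with the looser gate were chosen after seeing the data. Gates of 8 to 96 cells limit what the other classes can show.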
